A study of Mus musculus with 9 samples.

Results

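The mitosis genes described here are 37 genes listed by name for their roles as mitotic kinases and cyclins, spindle checkpoint, spindle, kinetochore and cytokinesis proteins, or as transcription factors and chromosome proteins of dividing cells. They were chosen by name, though with earlier results of these data known. Each was read from its brightest probe set, the one with the highest mean over all arrays. Of the 37 genes, 36 were measured among 18193 genes in all, and Ccnb1 (cyclin B1) was not analysed here because no probe set carried its symbol alone in the annotation used. The series followed how mature cardiomyocytes made from pluripotent stem cells become in culture, on 9 one-colour expression arrays with 3 replicates each at day 10, day 20 and day 30 of differentiation. All 9 cultures came from the synp line, derived from R1 mouse embryonic stem cells of 129X1 x 129S1 background, which carries a puromycin resistance gene (PAC) driven by the Ncx1 promoter. Differentiation was induced by cytokines, namely FGF10, bFGF, VEGF, BMP4 and Activin A. Puromycin selection against cells other than cardiomyocytes began on day 7, so that every group was of 1 line and had been selected. The days therefore differ in time in culture and in length of selection together. The labels do not say that the replicates were separate differentiations, so the p-values rest on the spread of these samples alone, and that spread may be technical.

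A cell enters mitosis when the kinase Cdk1, bound to A and B type cyclins, is switched on with the help of polo and Aurora kinases. The spindle checkpoint holds the cell until every chromosome is attached through its kinetochore, after which the anaphase-promoting complex with Cdc20 starts chromosome separation, and the central spindle then directs the cleavage of the cell. Heart muscle cells of the mouse divide in the embryo and for a short time after birth, after which most leave the cell cycle, and their last rounds often end without cytokinesis. Most genes of mitosis are transcribed mainly in G2 and M phase, through promoters that bear the cell cycle genes homology region (CHR) and CCAAT boxes. The DREAM complex represses such promoters in resting cells, and B-Myb (Mybl2) and FoxM1 (Foxm1) activate them in cycling cells.

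Since many genes of mitosis are known to be controlled in this way, promoters are shown first. RefSeq promoter sequence (GRCm38.p6), running from 250 bases before to 50 bases after the start of transcription, was at hand for 30 of the 37 genes. It was searched on both strands for TTTGAA and, as a second spelling, for TTCGAA, the core letters of the CHR, for CCAAT, the box bound by NF-Y, and for 4 spellings of the E2F site. These were TTCCCGC first, then the spelling TTGGCGC, then the spelling TTCGCGC and lastly the spelling TTGCCGC. A letter match is a description of the sequence and not proof of a bound site. Where a gene had more than 1 promoter listed, which was so for 2 of the 30, only the first was searched. The 4 promoters printed below belong to the genes with the largest difference between day 30 and day 10 among those in the table, and each is shown from 150 bases before the start to the first 30 bases of the transcript, with motif matches in capitals. Bub1 lies at chr2:127831830-127832009 on the minus strand, Ube2c at chr2:164769779-164769958 on the plus strand, Kif2c at chr4:117178743-117178922 on the minus strand and Birc5 at chr11:117849087-117849266 on the plus strand.
Bub1: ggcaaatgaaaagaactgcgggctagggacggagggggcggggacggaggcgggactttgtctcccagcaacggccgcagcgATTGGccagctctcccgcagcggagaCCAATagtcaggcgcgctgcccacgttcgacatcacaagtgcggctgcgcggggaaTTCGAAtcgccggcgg
Ube2c: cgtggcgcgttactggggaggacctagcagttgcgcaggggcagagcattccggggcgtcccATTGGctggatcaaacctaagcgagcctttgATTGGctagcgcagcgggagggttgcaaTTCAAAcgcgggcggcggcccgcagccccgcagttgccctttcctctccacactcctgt
Kif2c: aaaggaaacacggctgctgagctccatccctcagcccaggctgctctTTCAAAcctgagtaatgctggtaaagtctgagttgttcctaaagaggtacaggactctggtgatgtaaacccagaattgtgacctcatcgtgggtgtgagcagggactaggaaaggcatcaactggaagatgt
Birc5: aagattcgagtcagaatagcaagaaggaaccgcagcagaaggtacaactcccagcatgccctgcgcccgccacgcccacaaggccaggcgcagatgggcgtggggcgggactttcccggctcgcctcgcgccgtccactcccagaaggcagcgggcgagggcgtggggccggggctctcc
The Bub1 and Ube2c windows each held 2 CCAAT boxes, spelled ATTGG where they lay on the other strand, followed nearer the start by 1 CHR match. The Kif2c window held 1 CHR match and no CCAAT box, and the Birc5 window held none of the motifs.

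Over the full promoters, a CHR match was present in 22 of the 30 mitosis genes, a share of 73.3%, against 19.4% of the 27025 genes with a promoter in the table. A CCAAT box was present in 73.3% of the mitosis genes, against 37.9% of all genes, and both motifs together stood in 19 of the 30, or 63.3%, against 7.7% of all genes. E2F letters were found in 4 mitosis genes (13.3%), against 9.69% of all genes. On the replication list described further on, E2F letters were found in 14 of 24 promoters (58.3%) and a CHR match in 16.7%. The list of other mitosis genes was close to the mitosis genes, with a CHR match in 63.6% and both motifs in 48.5%, and of the condensin and cohesin promoters 57.1% held a CHR match and 64.3% E2F letters. The 31 CHR matches in the mitosis genes lay at a median of 5 bases before the start, and 21 of them, in 20 genes, lay within 50 bases of it. The 49 CCAAT matches lay farther upstream, at a median position of -68 relative to the start. Positions were not worked out for other genes, so this placement is not shown to be particular to the mitosis genes. None of the motifs was found in Birc5, Mybl2, Mad2l1, Pttg1 and Nuf2. The 22 genes with a CHR match had a median log2 difference between day 30 and day 10 of -2.04, and the 7 measured genes without a match had a median of -1.75, with overlapping ranges of -3.04 to -1.37 and -2.37 to -1.34.

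**Figure D1:**
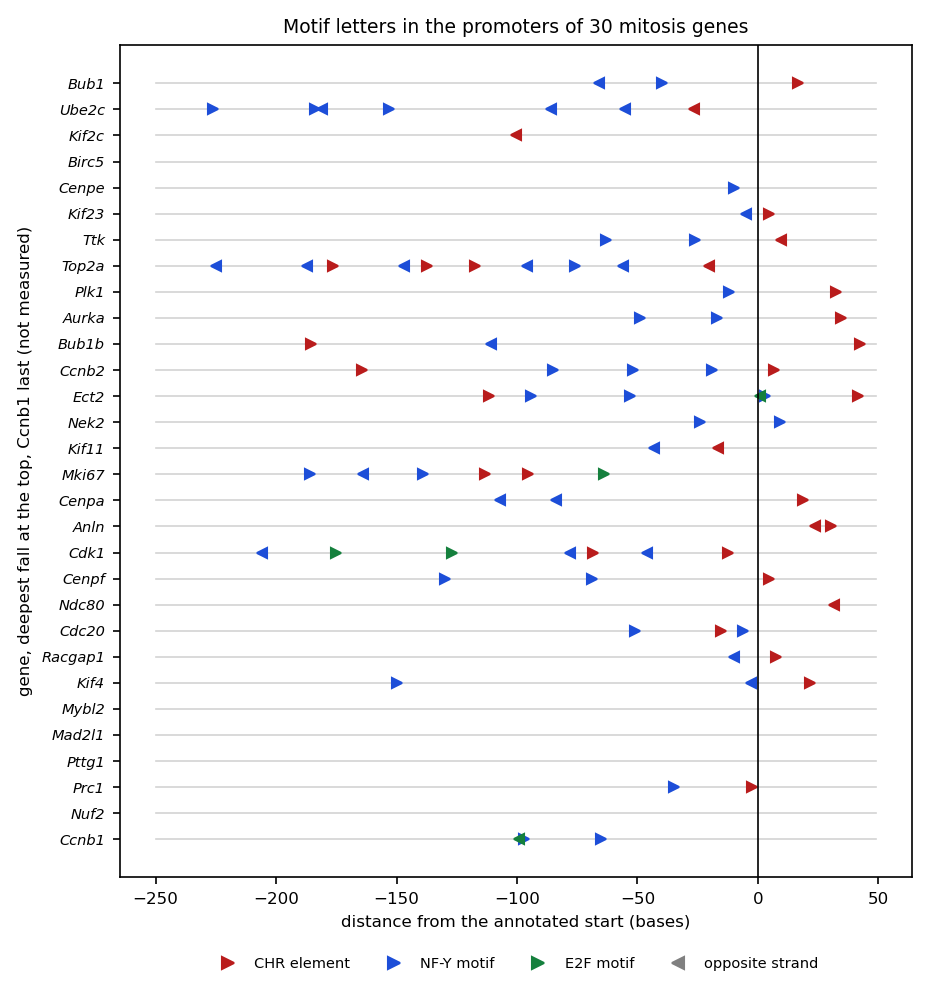
Positions of CHR, CCAAT and E2F letter matches in the RefSeq promoters of the 30 mitosis genes in the table, as distance in bases from the start of transcription on the x axis, with 1 row per gene. CHR matches gather around the start, with a median of -5, and CCAAT matches upstream of it, with a median of -68.

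The values are log2 signals as deposited, and the medians over all genes were close on the 9 arrays, from 6.47 to 6.73. Tnnt2, cardiac troponin T, a defining marker of the labelled cell type, measured between 13.01 and 13.59 on every array, though 1 bright marker does not give the make-up of a culture. The arrays of a day differed from each other in the mitosis genes far more than in most genes. The median over the 36 mitosis genes was 9.09, 9.44 and 7.00 on day 10 replicates 1, 2 and 3, then 7.99, 6.41 and 7.34 at day 20, and 5.93, 6.29 and 7.01 at day 30. Day 10 replicate 3 stood apart from its own group: it was the lowest of the 3 day 10 arrays in 36 of 36 genes, its median was near that of day 30 replicate 3, and it was above that array in 20 of the 36. Day 20 replicate 1 was the highest of its day in 36 genes and day 20 replicate 2 the lowest in 35, while day 30 replicate 3 was the highest of its day in 36 genes and day 30 replicate 1 the lowest in 31. The median SD of a mitosis gene on days 10, 20 and 30 was 1.16, 0.80 and 0.60 between replicates, against 0.187, 0.130 and 0.137 for all genes.

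**Figure D2:**
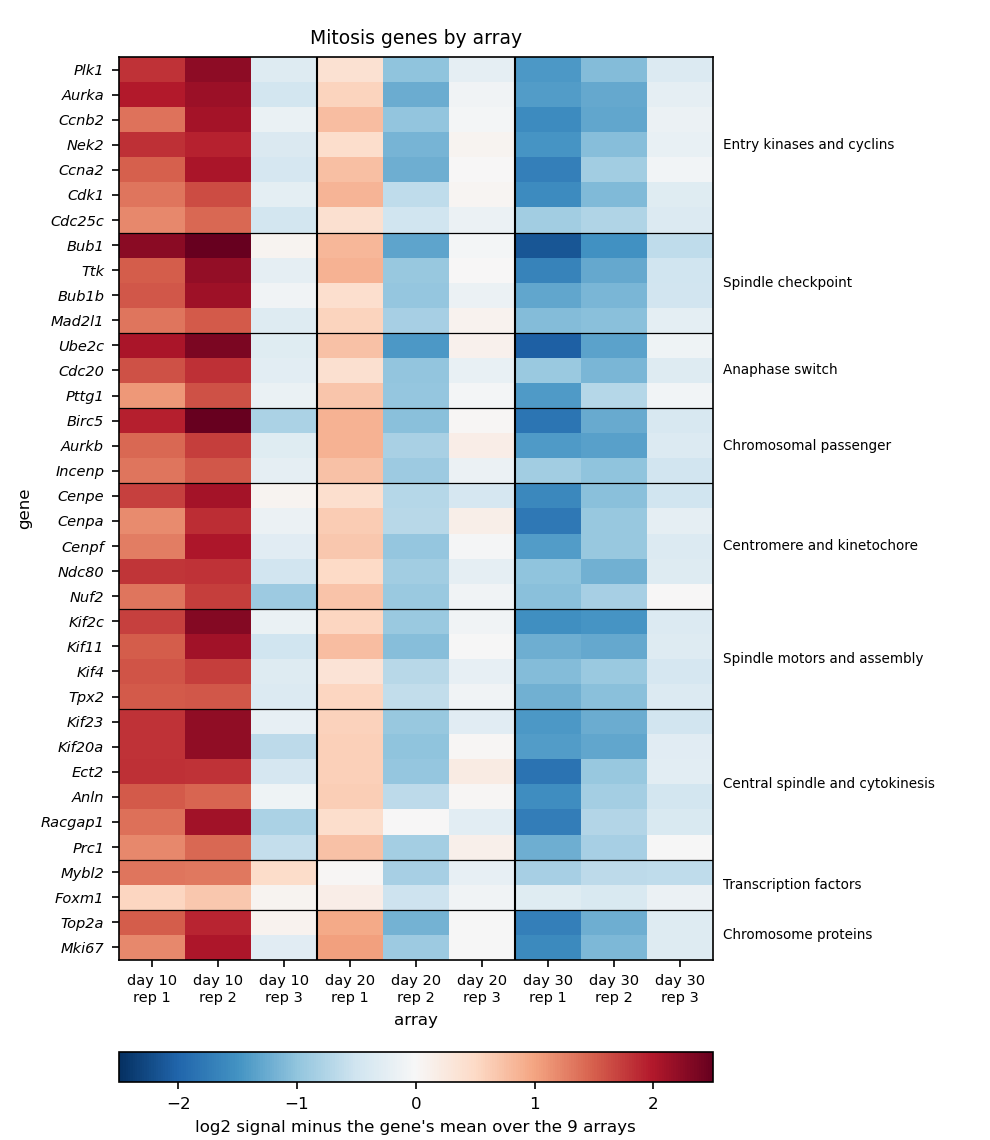
Log2 signal of each of the 36 measured mitosis genes on each of the 9 arrays, as deviation from that gene's mean over the 9 arrays, with genes in rows by role and arrays in columns by day and replicate. Day 10 replicates 1 and 2 are high, with median deviations of 1.52 and 1.92, while day 10 replicate 3, at -0.29, lies near day 30 replicate 3, at -0.33.

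Other cells and states moved over the same days. The mean signal of 9 fibroblast and matrix markers was 11.75, 11.999 and 11.75 on the day 30 arrays, against 7.32, 8.39 and 7.83 at day 10, and 7 of the 9 rose. Col1a1, a collagen chain, measured 12.98, 13.61 and 12.79 at day 30, against 6.85, 6.14 and 7.56 at day 10. The mean of 10 cardiomyocyte markers was 12.72, 12.52 and 12.63 at day 30, against 11.26, 11.61 and 12.35 at day 10, where replicate 3 was again the array nearest to day 30. Of these 10 markers, Pln (phospholamban) and Tnni3 (cardiac troponin I) rose and the other 8 did not pass the test. The mean of 7 pluripotency markers was between 3.90 and 3.98 at day 30, against 5.39 to 6.15 at day 10, and 6 of the 7 fell. Of 4 epithelial markers, Krt8, Krt18 and Cdh1 fell and Epcam rose. The mean of 7 endothelial markers was highest on day 10 replicate 3, at 6.42, and lay between 4.81 and 5.64 on the other 8 arrays. Of 4 blood markers, Lyz2, the lysozyme of macrophages, rose by 2.46 (adjusted p = 0.00093), with 7.32, 8.13 and 7.197 at day 30, against 5.13, 5.12 and 5.01 at day 10. The other 3 did not pass, and Ptprc, the pan-leukocyte marker, lay between 3.44 and 3.85 on all arrays. None of 6 endoderm markers passed. The part of these cell types in the mitosis result was not tested, and in such bulk RNA fewer dividing cells and less mitotic RNA per cell cannot be told apart.

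The mitosis genes were lower at day 30 than at day 10. Of the 36, 14 fell and 0 rose by limma's moderated test, at an adjusted p under 0.05 over all 18193 genes, whereas 9.92% of all genes fell and 11.2% rose. The difference was negative in 36 of 36 genes, against 9881 of all 18193. Its median was -1.97 on the log2 scale, against -0.03 for all genes, and it ran from -3.04 in Bub1 to -0.70 in Foxm1. As the genes were high or low together on an array, the 36 signs are not independent. In 34 genes the unadjusted p was under 0.05, where 3149 of all 18193 genes were lower at that level. In 20 genes every day 30 array lay below every day 10 array, which was so for 18.8% of all genes. The number of calls rested on single arrays. Without day 10 replicate 3 the count was 36, with a median of -2.65, where 14.4% of all genes fell. It was 1 when replicate 1 or replicate 2 of day 10, or replicate 1 or replicate 2 of day 30, was left out alone. In those fits 7.67%, 6.71%, 5.84% and 6.11% of all genes fell, in that order. The count was 5 without day 30 replicate 3, where 5.99% of all genes fell, and 3 without day 20 replicate 3, where 7.75% fell. The median stayed between -1.56 and -2.65 in all 9 fits with 1 array left out.

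**Figure D3:**
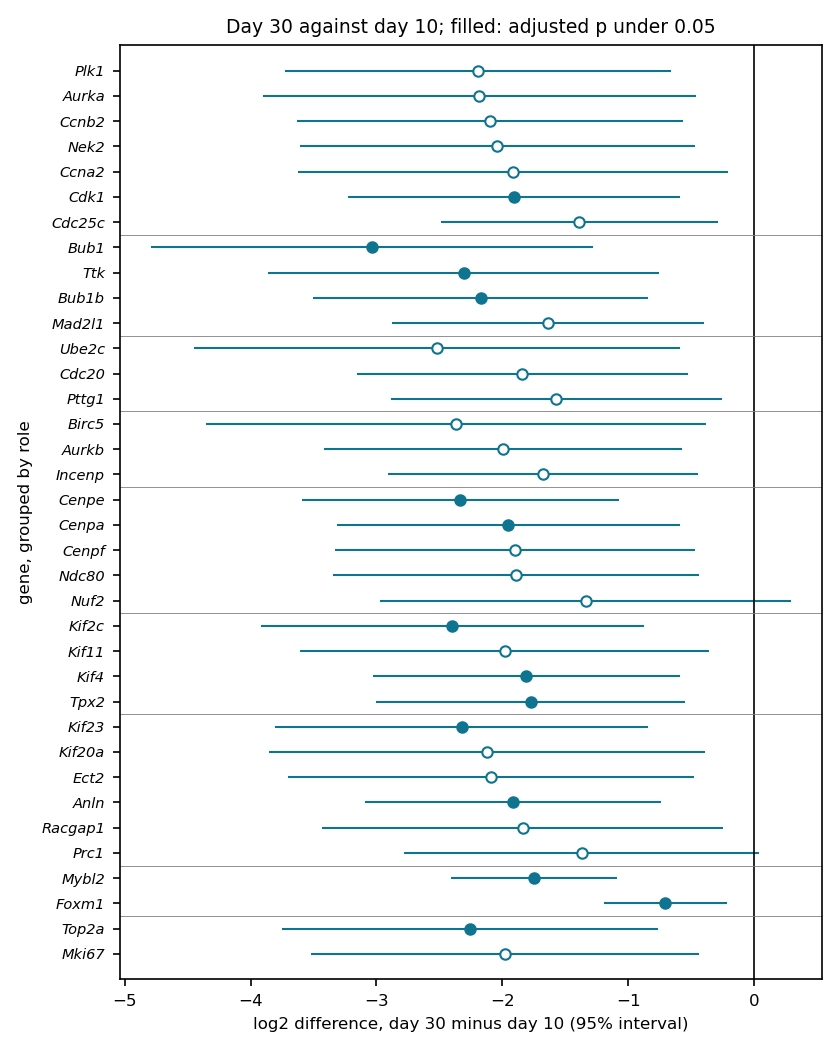
Log2 difference of each mitosis gene for day 30 against day 10, with 95% confidence intervals from limma, on an x axis of log2 difference with genes in rows. The differences run from -3.04 (Bub1) to -0.70 (Foxm1), all below 0.

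Among the spindle checkpoint genes, 3 of 4 fell, with a median difference of -2.24. Bub1, a kinase that gathers checkpoint proteins at the kinetochore, measured 5.45, 6.07 and 6.95 on the day 30 arrays, against 9.84, 10.10 and 7.65 at day 10. Its arrays did not overlap, and it fell by 3.04 (SE 0.76), 8.21-fold, with an adjusted p of 0.025. This was the largest difference among the 36 genes, and its promoter is the first of those printed above. Bub1b, which encodes the checkpoint kinase BubR1, measured 5.92, 6.08 and 6.75 at day 30, against 8.78, 9.35 and 7.13 at day 10, and its groups did not overlap (adjusted p = 0.031). Ttk, the Mps1 kinase that starts the checkpoint signal, measured 5.38, 5.77 and 6.55 at day 30, against 8.56, 9.25 and 6.82 at day 10, and it fell 4.94-fold (adjusted p = 0.044). In both genes the day 10 replicate 3 value was the closest to day 30. Mad2l1, whose product Mad2 binds and restrains Cdc20, differed by -1.63, its groups overlapped at one array each, and it did not pass the test (adjusted p = 0.066).

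Of the 7 measured kinases, cyclins and the phosphatase of mitotic entry, 1 fell, and all 7 had an unadjusted p under 0.05, with a median difference of -2.04. Cdk1, the kinase that drives entry into mitosis, measured 7.83, 8.31 and 9.10 at day 30, against 10.75, 11.04 and 9.17 at day 10, and fell by 1.91 (SE 0.57, adjusted p = 0.048). The groups were set apart by a narrow gap between the third replicates of the 2 days. Plk1, the polo kinase that acts at centrosomes, kinetochores and the midbody, differed by -2.19 with an adjusted p of 0.0501, just outside the threshold, although its day 30 values of 5.66, 6.01 and 6.76 lay below the day 10 values of 8.90, 9.34 and 6.77. Its highest day 30 and lowest day 10 values all but touched, so the groups were separated by less than the spread within either. The cyclins Ccnb2 and Ccna2 differed by -2.10 and -1.91 and did not pass (adjusted p = 0.058 and 0.107). Aurka, the Aurora kinase of spindle poles, Nek2, a kinase of centrosome separation, and Cdc25c, a phosphatase that activates Cdk1, differed by -2.18, -2.04 and -1.39, and in each the groups overlapped.

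In the anaphase switch, none of 3 genes passed the test, although all 3 had an unadjusted p under 0.05. Ube2c, the ubiquitin-conjugating enzyme that works with the anaphase-promoting complex, measured 7.02, 7.71 and 8.95 at day 30, against 11.09, 11.40 and 8.76 at day 10. Its difference of -2.52 (SE 0.84) was second in size to that of Bub1, yet day 10 replicate 3 lay below day 30 replicate 3 and the adjusted p was 0.068. Cdc20, the activator of the complex, differed by -1.84 (adjusted p = 0.053), and its groups did not overlap. Pttg1, the securin that holds separase inactive until anaphase, averaged 9.43 ± 0.67 at day 30 and 11.001 ± 0.91 at day 10 (SD, n = 3 each) and did not pass (adjusted p = 0.088).

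The 3 members of the chromosomal passenger complex, which corrects wrong attachments and marks the division plane, did not pass either. Birc5, or survivin, measured 6.28, 6.83 and 7.69 at day 30, against 10.03, 10.58 and 7.30 at day 10. Replicates 1 and 2 of the 2 days stood far apart, while day 10 replicate 3 lay below day 30 replicate 3, and the SD of 1.76 at day 10 was the largest among the mitosis genes. Its difference was -2.37 (SE 0.86, adjusted p = 0.089). The kinase gene Aurkb differed by -1.995 (adjusted p = 0.053) and Incenp, the scaffold of the complex, by -1.68 (adjusted p = 0.058), both without overlap between the groups.

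Of 5 centromere and kinetochore genes, 2 fell. Cenpe, a kinesin that carries chromosomes to the spindle equator, measured 5.06, 5.63 and 6.17 at day 30, against 8.38, 8.75 and 6.74 at day 10, and fell by 2.33 (SE 0.55, adjusted p = 0.019). Cenpa, the histone variant that marks centromeres, averaged 7.86 ± 0.79 at day 30 and 9.81 ± 1.02 at day 10 (SD, n = 3 each) and fell 3.87-fold (adjusted p = 0.049). Cenpf, a large kinetochore protein, and Ndc80, which holds microtubules at the kinetochore, differed by -1.90 and -1.89 without passing (adjusted p = 0.064 and 0.069). Nuf2, the partner of Ndc80 in the same complex, had the highest adjusted p of the 36 genes, with 5.27, 5.48 and 6.33 at day 30, against 7.66, 8.04 and 5.40 at day 10. Its day 10 replicate 3 lay below 2 of the 3 day 30 arrays, and its difference of -1.34 had a confidence interval from -2.96 to 0.29 (adjusted p = 0.227).

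Of 4 spindle motor and assembly genes, 3 fell. Kif2c, a kinesin that takes microtubules apart at centromeres, measured 5.46, 5.52 and 6.66 at day 30, against 8.71, 9.29 and 6.82 at day 10, and fell 5.26-fold (adjusted p = 0.036). Kif4, a motor on chromosome arms, fell by 1.81 (adjusted p = 0.044), and Tpx2, which activates the Aurora kinase of spindle poles, fell by 1.77 (adjusted p = 0.048). In these 3 genes the groups did not overlap. Kif11, the motor that pushes spindle poles apart, differed by -1.98 with overlap (adjusted p = 0.084).

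Of 6 genes of the central spindle and cytokinesis, 2 fell. Anln, anillin of the contractile ring, measured 7.01, 7.73 and 8.10 at day 30, against 10.09, 10.02 and 8.46 at day 10, and fell by 1.91 (SE 0.51, adjusted p = 0.032). Kif23, the motor of centralspindlin, fell 5.0-fold (adjusted p = 0.036), and the groups did not overlap in either gene. Racgap1, the partner of Kif23 in centralspindlin, and Ect2, the exchange factor that switches on RhoA at the cleavage furrow, differed by -1.84 and -2.09 without passing (adjusted p = 0.098 and 0.070). Kif20a, another central spindle motor, differed by -2.12 (adjusted p = 0.083). Prc1, which bundles the antiparallel microtubules of the midzone, differed by -1.37 with a confidence interval from -2.77 to 0.03 (adjusted p = 0.154).

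Both transcription factors fell. Mybl2, or B-Myb, measured 4.24, 4.41 and 4.44 at day 30, against 6.41, 6.39 and 5.53 at day 10, and fell by 1.75 (SE 0.28, adjusted p = 0.0043). The groups lay apart by more than 1 log2 unit. The day 30 signal was low and background could not be judged, so its SD of 0.11 there does not show a more precise measurement, and the size of the fall is uncertain. It also passed the test in the same comparison when any single array was left out. Foxm1 measured 6.502, 6.42 and 6.67 at day 30, against 7.34, 7.49 and 6.87 at day 10. It had the smallest difference of the 36 genes, 1.63-fold lower, and passed with an adjusted p of 0.046, with SDs of 0.13 at day 30 and 0.32 at day 10 (n = 3 each). The dimmer Foxm1 probe sets differed by -0.94, -1.19 and 0.07, so its place among the 36 rests on the probe set used. Top2a, the topoisomerase that untangles sister chromosomes, measured 7.57, 8.06 and 8.95 at day 30, against 10.80, 11.18 and 9.37 at day 10, and fell 4.77-fold (adjusted p = 0.041). Mki67, the Ki-67 protein used as a stain for cycling cells, measured 7.52, 7.996 and 8.80 at day 30, against 10.30, 11.12 and 8.83 at day 10. Its groups touched without overlapping, and its difference of -1.98 (SE 0.67) did not pass the test (adjusted p = 0.071).

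**Figure D4:**
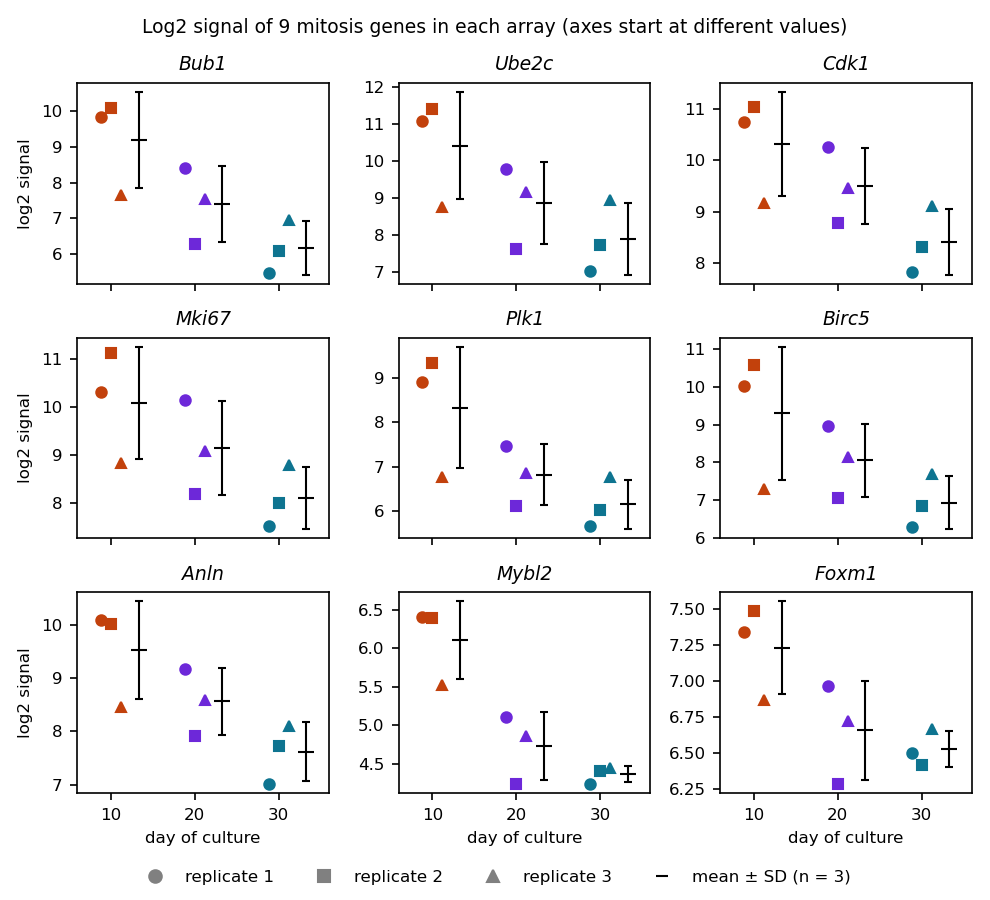
Log2 signal of 9 mitosis genes on each array by day, with each replicate as a point and the day mean as a bar. In Birc5 the day 10 replicate 3 point lies at 7.30, below the day 10 mean of 9.30, while the 3 Mybl2 points of day 30 lie between 4.24 and 4.44.

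For day 20 against day 10, 1 of the 36 genes passed the test, a share below that of all genes. Mybl2 fell, by 1.38 (SE 0.28, adjusted p = 0.018), and 0 genes rose, whereas 6.69% of all genes fell and 7.3% rose. Its day 20 values of 5.10, 4.23 and 4.85 lay below every day 10 array. It was the 1 mitosis gene of 36 in which this was so, against 17.3% of all genes. The difference was negative in 36 of 36 genes, against 10129 of all 18193, with a median of -1.18, against -0.03 for all genes. These signs are not independent either. Of the 36, 6 were lower at an unadjusted p under 0.05, a share near that of all genes (2754 of 18193). Cenpe measured 7.09, 5.96 and 6.25 at day 20 and differed from day 10 by -1.52 (SE 0.55, adjusted p = 0.104). Bub1 measured 8.41, 6.27 and 7.54 at day 20 and differed by -1.79 (SE 0.76, adjusted p = 0.162). In both genes day 20 replicate 1 lay above day 10 replicate 3. Foxm1, Bub1b, Kif23, Cdc20, Plk1, Kif4 and Kif2c differed by between -0.57 and -1.52, with adjusted p between 0.107 and 0.192. Mki67 measured 10.13, 8.19 and 9.09 at day 20 and differed by -0.94 (SE 0.67, adjusted p = 0.398). Without day 10 replicate 3 the count of calls was 27, where 13.4% of all genes fell. It was 0 when replicate 1 or replicate 2 of day 10 or replicate 2 of day 20 was left out. In those fits 3.89%, 3.41% and 2% of all genes fell, in that order. The comparisons of day 20 and of day 30 with day 10 share the day 10 arrays, so they are not independent of each other.

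Between day 20 and day 30 no mitosis gene passed limma's test, where 0.044% of all genes fell and 0.291% rose. None had an unadjusted p under 0.05, where 780 of the 18193 genes were lower and 1194 higher at that level. The difference was again negative in 36 of 36 genes, against 8897 of all 18193, with a median of -0.81, against 0.0045 for all genes. Here too the genes were high or low together on an array, so the signs are not independent. Leaving out day 20 replicate 1 gave a median of -0.43, leaving out day 20 replicate 2 gave -1.20, and any other single array left a value between these. Cdk1 measured 7.83, 8.31 and 9.10 at day 30, against 10.25, 8.77 and 9.46 at day 20, a difference of -1.08 with a confidence interval from -2.39 to 0.23 (adjusted p = 0.562). The interval takes in both no change and a fall larger than that up to day 20. Anln, Aurkb, Cenpa and Ttk differed by between -0.95 and -1.12, with adjusted p between 0.565 and 0.624, and Mki67 by -1.04 (SE 0.67, adjusted p = 0.658). Racgap1 was the 1 gene, named after its values were seen, in which all day 30 arrays (5.91, 6.90 and 7.27) lay below all day 20 arrays (8.08, 7.66 and 7.37), compared with 9.72% of all genes.

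Read from the day means, a median of 59.1% of a gene's total difference between day 10 and day 30 was present at day 20. It rested on single arrays, being 79.0% without day 20 replicate 1, 36.8% without day 20 replicate 2 and between 46.2% and 69.4% with another array left out. With all arrays, the share was lowest in Cdk1, at 43.3%, and highest in Foxm1 and Mybl2, at 81.7% and 78.9%, the last resting on the low Mybl2 signal noted above. A direct test of whether the later interval differed from the earlier one gave 0 calls, where 0.324% of all genes were called lower and 0.154% higher. At an unadjusted p under 0.05 it gave 0 mitosis genes, where 1387 of the 18193 genes were lower and 1433 higher. The differences of the differences, later minus earlier, had a median of 0.32, in which a positive value means a smaller fall in the later interval. This median changed sign with 1 array left out, being -0.53 if day 20 replicate 2 and -0.12 if day 10 replicate 2 was dropped. Dropping replicate 1, 2 or 3 of day 30 gave 0.57, 0.41 or 0.042, dropping replicate 1 or 3 of day 10 gave 0.10 or 1.02, and dropping replicate 1 or 3 of day 20 gave 1.12 or 0.40. The value was 1.01 in Mybl2 (SE 0.49, adjusted p = 0.374), 0.45 in Foxm1 (adjusted p = 0.599) and -0.09 in Mki67 (SE 1.16, adjusted p = 0.985). It lay between 0.71 and 0.85 in Cdc20, Cenpe and Plk1, with adjusted p between 0.767 and 0.778. No change of pace between the intervals was detectable with 3 arrays a day.

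**Figure D5:**
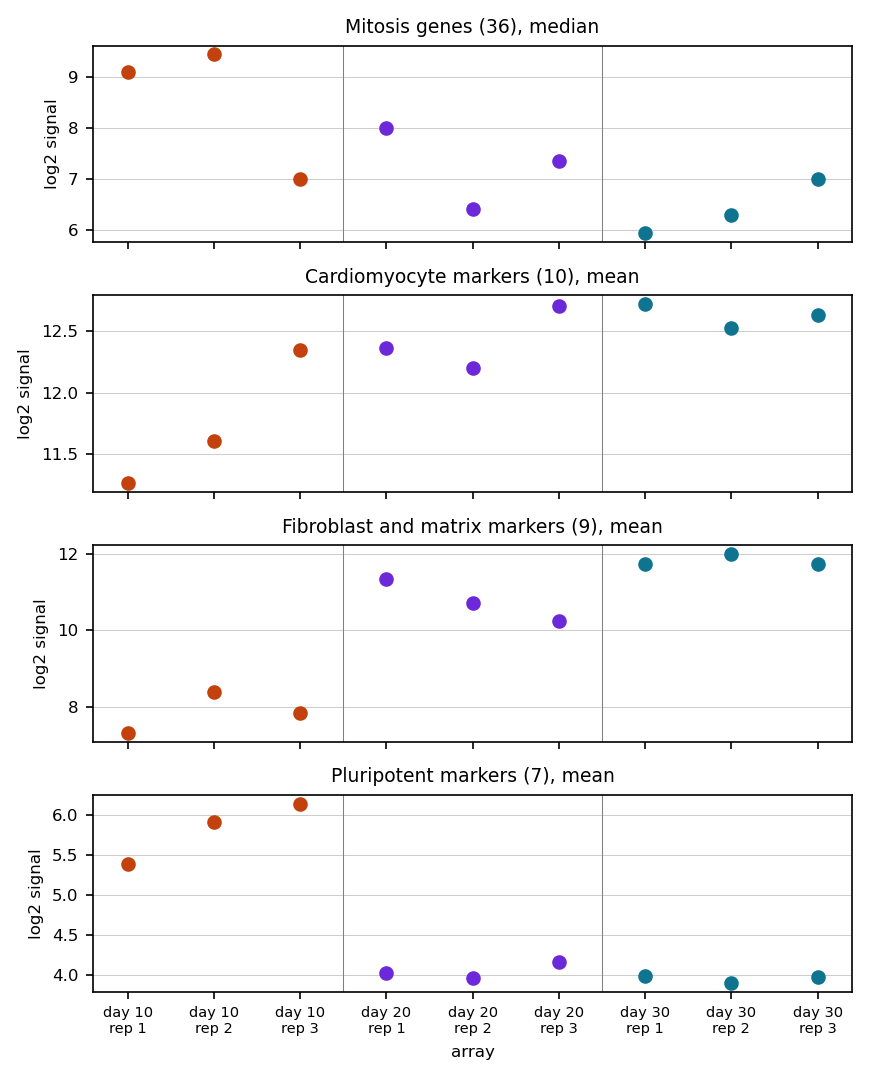
Median log2 signal over the 36 mitosis genes on each array, in order of day, beside the mean signal of the fibroblast and cardiomyocyte marker lists on the same arrays. The mitosis median is 9.09, 9.44 and 7.00 at day 10 and 5.93, 6.29 and 7.01 at day 30, while the fibroblast mean lies at 8.39 or less at day 10 and at 11.75 or more at day 30.

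Other parts of the cell cycle machinery were set beside these genes in 5 lists that share no gene with the 37. Of 30 genes of G1, S phase and replication, 14 fell (46.7%) and 0 rose for day 30 against day 10, with a median of -1.33. Of all genes, 9.92% fell and 11.2% rose. Mcm2, a subunit of the replicative helicase, measured 6.92, 7.33 and 7.75 at day 30, against 9.86, 10.16 and 8.67 at day 10, and fell by 2.23 (adjusted p = 0.010). Mcm7 of the same helicase fell by 2.03, Mcm10 by 1.92, the phosphatase gene Cdc25a by 0.99 and the transcription factor gene E2f3 by 0.92. In E2f3, in contrast to the mitosis genes, day 10 replicate 3 was the highest array of its day, at 9.20. The count of 14 was 25 without day 10 replicate 3, and it was between 6 and 8 without day 10 replicate 1 or 2 or day 30 replicate 1 or 2. For this list and the next ones, 14.4% of all genes fell without day 10 replicate 3. Between 5.84% and 8.5% of all genes fell when any other single array was left out.

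Of 17 measured condensin and cohesin genes, 7 fell (41.2%) and 0 rose, with a median of -1.09, where 9.92% of all genes fell. Smc2, the core of condensin, fell by 2.25 (adjusted p = 0.025), Ncaph by 1.79 and Ncapd2 by 1.65, and Ncapd3 and the cohesin core gene Smc3 fell by 0.50 and 0.66. Of 14 genes of the anaphase-promoting complex and its regulators, 4 fell (28.6%, against 9.92% of all genes) and 0 rose, with a median of -0.24. The subunit genes Cdc23 and Cdc27 fell by 0.41 and 0.72, the activator Fzr1 (Cdh1) fell by 0.74 and the inhibitor Fbxo5 (Emi1) fell by 1.74. Anapc7 differed by -0.36 and did not pass (adjusted p = 0.102). Without day 10 replicate 3, 13 condensin and cohesin genes fell, and 1 to 3 did without any other array of day 10 or day 30 or without day 20 replicate 3. The count for the anaphase-promoting complex was again 4 without day 10 replicate 3, 0 without day 10 replicate 2 or day 30 replicate 2, and 2 without any 1 of the other arrays.

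Of 41 other mitosis genes, 9 fell (22%) and 1 rose (2.44%), with a median of -1.65, where 9.92% of all genes fell and 11.2% rose. Plk4, the kinase of centriole duplication, fell by 1.95, Cks1b, a Cdk-binding protein, by 1.54, Ccnf, cyclin F, by 2.34 and Cdca2 by 1.61. Cdc25b, a phosphatase of mitotic entry, was the gene that rose, with 6.63, 7.01 and 6.86 at day 30, against 5.39, 6.35 and 5.13 at day 10, a difference of 1.21 (adjusted p = 0.021). The 9 calls were 37 without day 10 replicate 3, 0 without day 30 replicate 1 and 3 or 4 without day 10 replicate 1 or 2 or day 30 replicate 2, and the rise of Cdc25b was lost when replicate 1 of day 10 or replicate 2 or 3 of day 30 was left out. Of 22 cell cycle brakes and DREAM genes, 3 fell and 3 rose, which is 13.6% in each direction and near the shares of all genes (9.92% and 11.2%), with a median of -0.10. The pocket protein gene Rbl2 (p130) rose by 1.10, the antiproliferative gene Btg1 by 1.25 and the Cdk inhibitor gene Cdkn2b by 2.59, while the Cdk inhibitor gene Cdkn1c fell by 1.65 and E2f5, a partner of pocket proteins, by 0.96. Of the brakes, 5 fell without day 10 replicate 3 and 1 rose without day 30 replicate 2.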

How the data were processed

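Total RNA of 9 cultures, 3 per day, was amplified from the 3 prime end and biotin-labelled, per the labels' protocols. The authors deposited 1 log2 signal per probe set and array, from 2.77 to 14.52. How they were normalized is not given in the sources used, nor is the log base, which was taken as log2 from the range. Of 45101 probe sets, 34945 carried 1 gene symbol in the platform annotation, 932 several and 9211 none. Array medians differed by at most 0.0746 over all probe sets and 0.255 over the genes tested, and the deposited values entered the tests unchanged, with no filter on low signal. Background could not be judged per probe, and the number of arrays limits the precision. limma 3.58.1 in R 4.3.3 fitted 1 mean per day to all 9 arrays (lmFit and eBayes, two-sided), with Benjamini-Hochberg adjustment over 18193 genes and a threshold of 0.05. The confidence intervals are 95% intervals. Days and replicates came from the sample titles. The alternatives changed the scaling, the probe set rule, the filter, the fit or left out 1 array. The fit was tested on simulated data with noise drawn independently for each gene. Shifts shared by many genes on an array, as seen in the mitosis genes, were not simulated. The members, lists, marker sets and tests were chosen with earlier results of these data known. Every member could be named for day 30 against day 10; for day 20 against day 10 the 10 members with the lowest p were named with Mki67, for the other contrasts the 5 with the lowest p with Mki67, and 5 genes of each other list.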

Additional observations from a re-analysis of the deposited data

How the results depend on the processing

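The negative median for day 30 against day 10 kept its sign under all 17 alternatives, while the number of members that fell, 14, did not keep its size. Percentages in brackets beside these counts are the shares of all genes that fell in the same fit. The count was 23 (13.1%) after quantile normalization and 31 (22.2%) with each array centred on its median. It was 9 (10.3%) with the mean of all probe sets of a gene and 24 of 30 (16.2%) with only genes above the median signal. It was 36 (17.5%) with array weights, 4 (6.17%) with only the arrays of the days compared and 2 (8.82%) with the replicate number as a block. The count ranged from 1 to 36 when 1 array was left out. The array weights gave day 10 replicate 2 a weight of 2.68 and day 10 replicate 3 a weight of 0.29. For day 20 against day 10, where 1 member fell, the count was 2 (12.2%) with centring and 0 (10.7%) with the signal filter, which left out Mybl2. It was 32 (16.2%) with array weights and 0 (2.63%) with only the days compared, and ranged from 0 to 27 when 1 array was left out. No member rose in any comparison under any alternative, and no member was called for day 30 against day 20 or between the intervals. Mybl2 was called for day 30 against day 10 under all 16 alternatives that tested it (adjusted p at most 0.0194), and each of the other 13 calls was lost under at least 4. The interval difference of Mki67, -0.09, was 0.85 with array weights and ran from -1.04 to 0.90 when 1 array was left out. The cause of these shifts was not tested beyond the arrays and genes each alternative leaves out. Centring moved the median of all genes to -0.19, against -0.03 as deposited, and relative to it the members' median was -1.94 on both scales. This had to be so, because centring shifts every gene of an array by the same amount. Centring also turned the calls over all genes to 72.1% lower, against 47.0% as deposited, with 22.2% of genes called lower. The other lists moved too: G1, S phase and replication had 6 to 25 genes lower (14 as reported), condensin and cohesin 1 to 14 (7), other mitosis genes 0 to 37 (9), the anaphase-promoting complex 0 to 8 (4), and the brakes 2 to 7 lower (3) and 1 to 6 higher (3). Same-numbered samples of different days correlated in their deviations by between -0.15 and 0.43. They were not compared with different-numbered samples, so this does not decide whether the numbers pair the samples. With each probe set tested on its own, a choice made after seeing the data, 11 members fell by any of their probe sets and 10 by the brightest. The interval difference could not be fitted with only the days compared.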

Other observations

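Of the 36 measured members, 24 had at least 2 probe sets, and of the 44 probe sets not used above, 40 had a negative difference between day 30 and day 10. The 9 of these with a signal above the median of all genes were all negative, with a median of -1.58, and the 35 dimmer ones were negative in 31 cases, with a median of -0.87. The brightest probe set of 6 members (Aurkb, Nek2, Incenp, Kif2c, Prc1 and Pttg1) has a name ending that marks possible binding to other transcripts.

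Relatives of the members were set beside them, in a list of 19 genes drawn up with earlier results of these data known. A role in mitosis is not excluded for these relatives. Of these, 3 fell (15.8%) and 1 rose (5.26%) for day 30 against day 10, where 9.92% of all genes fell and 11.2% rose, with a median difference of -0.24. Top2b, the topoisomerase of the same type as Top2a that is found in resting cells too, measured 10.48, 10.67 and 10.54 at day 30, against 10.60, 10.61 and 10.61 at day 10, and its difference of -0.05 had a confidence interval from -0.24 to 0.15. Cdk7 and Cdk9, kinases of the transcription machinery, fell by 0.41 and 0.26 (adjusted p = 0.039 and 0.041), and Myb, a relative of Mybl2, fell by 0.60 (adjusted p = 0.016). Nek7, a kinase related to Nek2, rose by 0.86 (adjusted p = 0.025). Xiap, an inhibitor of apoptosis related to Birc5, differed by -0.04, and Kif1b, a transport kinesin, by 0.08. The genes named from this list were chosen after their values were seen.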
